A study of Mus musculus with 3 samples.

Results

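The phagocyte NADPH oxidase was examined through 5 of its genes, Cybb, Cyba, Ncf1, Ncf4 and Rac2, out of 55536 annotated gene entries. The 5 were selected by gene symbol, and their 24 annotated isoforms were read alongside them. The RNA came from the chromatin fraction of macrophages that were grown from bone marrow of C57BL/6J mice and exposed for 90 minutes to 100 ng/ml lipid A, the part of bacterial lipopolysaccharide that Toll-like receptor 4 senses. Ribosomal RNA was depleted and total RNA was sequenced. The data form 1 group of 3 biological replicates, started from 1 µg (replicate 1), 250 ng (replicate 2) and 500 ng (replicate 3) of RNA. Every library carries 1 shared donor label, and age and sex were not collected. P-values therefore reflect only how these libraries vary, which may be technical, and the starting amount differs with each replicate. Untreated cells were not analysed here, so each value below is a level after lipid A and not a response to it.

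The phagocyte oxidase is the enzyme that moves electrons from NADPH across the membrane to oxygen and makes superoxide, which neutrophils and macrophages use against ingested microbes. Its catalytic core, cytochrome b558, is a membrane heterodimer of gp91phox (NOX2, from Cybb) and p22phox (from Cyba). In resting cells cytosolic subunits, among them p47phox (Ncf1) and p40phox (Ncf4), wait apart from the core, and on activation they move to the membrane together with a Rac GTPase, of which Rac2 is the form typical of blood cells. Inherited loss of the core or of a cytosolic subunit causes chronic granulomatous disease. RNA in the chromatin fraction is enriched for transcripts still attached to their template and for RNA that stays in the nucleus, so introns are part of what is measured.

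The libraries held 11106553, 24906602 and 19753409 expected counts in annotated genes (replicates 1, 2 and 3), and protein-coding genes took 69.5%, 40.3% and 50.4% of them. Replicate 1 stood apart, with the smallest total and the largest protein-coding share, so differences and spreads that move by over 1.5 times are also given without it. Macrophage markers were abundant, with summed levels of 599 to 814 TPM. All 11 passed the minimum count and 8 were called above the reference defined below, as were 21.3% of all tested genes. Among 12 neutrophil markers, the cell type that is richest in this oxidase, only Csf3r passed, and it was called above. Ly6g, Mpo, Elane and Retnlg were at 0 in every library, and the list summed to 21.1 to 31.7 TPM, of which Csf3r made 19.5 to 30.9. The summed level was at most 0.12 TPM for 5 B cell markers, 2.96 for 6 T and NK cell markers, 6.72 for 5 dendritic cell markers, 1.99 for 5 mast cell and basophil markers and 3.55 for 6 stromal and endothelial markers. None of those 5 lists had a member called above.

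All 5 subunit genes lay above the median expressed protein-coding gene of the chromatin fraction. A level here is log2(TPM + 1) minus the median of the 10530 tested protein-coding genes of that library, which stood at 5.5, 3.7 and 4.93 TPM (replicates 1, 2 and 3). TPM is a read count divided by transcript length and scaled to the library. The median level of the 5 genes was 3.77 log2 units, against -0.21 over the 13434 genes tested, whose expected count averaged 10 or more. All 5 passed that minimum. A gene was called above or below where limma's treat test placed it over 1 log2 unit from the reference, at a Benjamini-Hochberg adjusted p under 0.05 over the 13434 genes. By that test 5 of 5 were above and 0 below, the same as in edgeR-scaled counts per kilobase, while 21.3% of the tested genes were called above and 21.3% below. Over all genes the calls split into 2864 above and 2859 below, and into 3196 and 2084 when the median of all tested genes was the reference, with the 5 subunits above in both. In bulk RNA a gene's level reflects both how many cells express it and how much RNA each holds, and these cannot be told apart.

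Cybb, the catalytic membrane subunit, was the most abundant of the 5 in each library. It is ENSMUSG00000015340.10, on the minus strand of chromosome X at 9435252 to 9487771 in mm10. It measured 460 TPM in replicate 1, 171 in replicate 2 and 222 in replicate 3, a mean of 285 ± 154 (SD, n = 3). Replicate 1 lay above the other libraries by a wide margin. Its unscaled expected count was close to theirs, at 11399 against 10718 and 11957, but its library was the smallest. Scaled to library size (CPM), the counts were 1026, 430 and 605 in replicates 1 to 3. With edgeR's TMM factors as well, log2 CPM was 9.48, 9.21 and 9.31, a much smaller excess. Among tested protein-coding genes Cybb ranked 34, 106 and 94 from the top (replicates 1, 2 and 3). Its level was 5.53 ± 0.54 log2 units, 46.1-fold over the median gene on the TPM + 1 scale, with an adjusted p of 1.7e-05 (limma treat). Without replicate 1 the level was 5.22.

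Cyba, whose product stabilises the catalytic subunit in the membrane and docks p47phox, was far less abundant than its partner. It is ENSMUSG00000006519.11, on the minus strand of chromosome 8 at 122424776 to 122432930. It measured 18.8, 33.3 and 37.1 TPM in replicates 1 to 3, a mean of 29.8 ± 9.65 (SD, n = 3), from expected counts of 135, 428 and 381. Here replicate 1 was the lowest library, the opposite of Cybb. The level was 2.39 ± 0.68 log2 units (adjusted p = 0.0034, limma treat), and Cyba ranked 2500, 956 and 1144. An antisense gene, Gm20388, overlaps its locus but shares 0 exonic bases with it.

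Ncf4 and Ncf1, which encode cytosolic subunits, came next after Cybb. Ncf4 (ENSMUSG00000071715.12, plus strand of chromosome 15, 78244801 to 78262580) encodes p40phox, which binds a phosphoinositide of the phagosome membrane. It measured 93.4, 94.1 and 129 TPM in replicates 1 to 3, a mean of 105.5 ± 20.3 (SD, n = 3), from counts of 787, 1307 and 1462. Its level was 4.22 ± 0.32 log2 units (adjusted p = 2.5e-05, limma treat).

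Ncf1 (ENSMUSG00000015950.13, minus strand of chromosome 5, 134220053 to 134229625) encodes p47phox, the organiser that is phosphorylated on activation. It measured 69.6, 69.0 and 92.0 TPM in replicates 1 to 3, a mean of 76.8 ± 13.1 (SD, n = 3), from counts of 1716, 2716 and 3098. Its level was 3.77 ± 0.29 log2 units (adjusted p = 3.8e-05, limma treat). For both cytosolic subunit genes, replicates 1 and 2 were nearly equal and replicate 3 was highest. Gtf2ird2, an antisense gene, shares 408 exonic bases with Ncf1, 11.1% of the exonic bases of Ncf1, and had 437, 668 and 629 counts (replicates 1, 2 and 3). Whether the counting used strand is not given in the sources used here, so reads of the shared bases cannot be told apart.

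Rac2, the form of the oxidase's Rac GTPase that is typical of blood cells, lay close to Cyba. It is ENSMUSG00000033220.7, on the minus strand of chromosome 15 at 78559167 to 78572783, 296587 bases from Ncf4. It measured 16.0, 24.7 and 37.6 TPM in replicates 1 to 3, a mean of 26.1 ± 10.9 (SD, n = 3). The counts of 499, 573 and 678 varied less than the TPM did. Its level was 2.18 ± 0.70 log2 units (adjusted p = 0.0072, limma treat), with ranks of 2809, 1349 and 1125. With a minimum mean count of 100 in place of 10, which raises the reference, Rac2 at 1.11 and Cyba at 1.32 log2 units were no longer called (adjusted p = 0.75 and 0.38), and 3 of the 5 genes were.

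**Figure D1:**
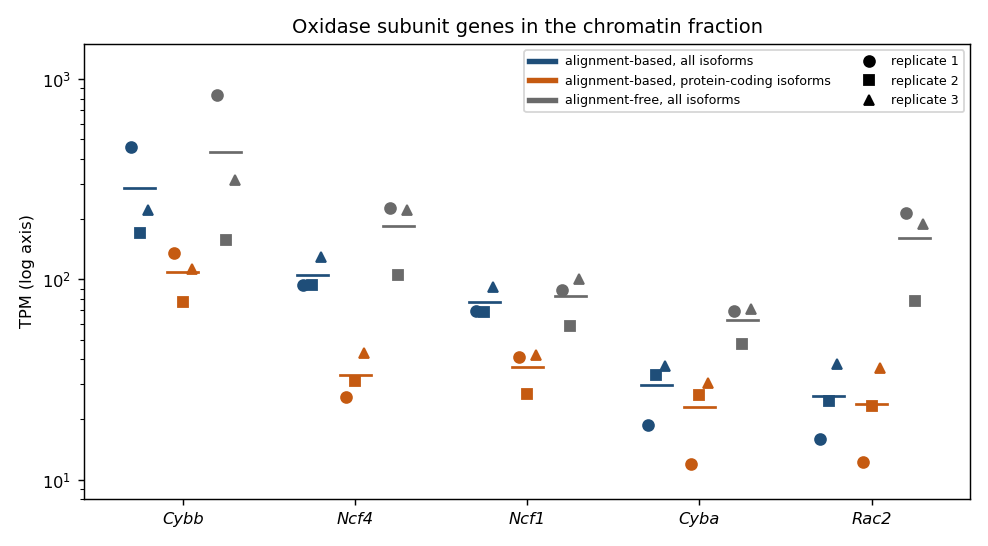
Levels of the 5 subunit genes on a log axis of TPM, with 1 point per replicate (circle, square and triangle for replicates 1, 2 and 3) and a bar at the mean of 3. Blue is the alignment-based table with all isoforms, orange the same table with protein-coding isoforms only, and grey the alignment-free table; Cybb is highest in every series, and Rac2 moves from a mean of 26.1 TPM in blue to 160 in grey.

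Within a library the 5 genes followed the order Cybb, Ncf4, Ncf1 and then Cyba with Rac2. Differences were taken on log2(TPM + 1) for 10 pairs. Cybb exceeded Ncf4 by 1.31 ± 0.85 log2 units (SD, n = 3), with 2.29, 0.86 and 0.78 in replicates 1 to 3, so that replicate 1 set much of the mean, which was 0.82 without it. Cybb exceeded its membrane partner Cyba by 3.14 ± 1.22 log2 units, an 8.81-fold difference, with 4.54, 2.33 and 2.55 in the 3 libraries. Without replicate 1 it was 2.44, with protein-coding isoforms only 2.25 and by alignment-free TPM 2.47. Cybb exceeded Rac2 by 3.35 ± 1.23 log2 units, or 2.64 without replicate 1. The cytosolic pair kept the steadiest ratio: Ncf1 minus Ncf4 was -0.42, -0.44 and -0.48 log2 units, a mean of -0.45 ± 0.03.

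Ncf1 exceeded Rac2 by 1.59 ± 0.41 log2 units and Cyba was below Ncf1 by a difference of -1.38 ± 0.41. The difference between Cyba and Rac2 was 0.21 ± 0.22 log2 units with mixed signs (0.22, 0.42 and -0.02), so these neighbours did not differ beyond their spread. The remaining 9 of 10 pairs had the same sign in 3 of 3 libraries. By an exact permutation test that flips the sign of each library's difference (two-sided), each of the 9 gave p = 0.25, the smallest that 3 libraries allow (0.28 after Benjamini-Hochberg adjustment over 10 pairs), and Cyba against Rac2 gave p = 0.5. The order depended on which isoforms and which table were used. Ncf1 minus Ncf4 was 0.13 with protein-coding isoforms only, and Ncf1 minus Rac2 was -0.86 and Cyba minus Rac2 -1.24 in the alignment-free table.

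Counts gave another view of the spread, free of transcript length. On log2 CPM (counts scaled to library size) with edgeR's TMM factors, the SD over the 3 libraries was 0.110 for Rac2 and 0.136 for Cybb, lower than for all but 7.22% and 10.8% of tested genes. It was 0.321 for Ncf1 and 0.350 for Ncf4, near the median gene at 0.398. Cyba had the widest spread, 0.792, above 86.5% of genes. Without replicate 1 the SD was 0.162 for Cyba, 0.0901 for Ncf1, 0.0702 for Ncf4 and 0.0675 for Cybb, so that library set much of the spread of 4 genes, and without replicate 3 it was 0.0438 for Rac2. The order rested on the scaling: by library totals alone the SD was 0.633 for Cybb, 0.485 for Rac2, 0.343 for Cyba, 0.297 for Ncf1 and 0.270 for Ncf4. For Rac2 the effective length used for TPM was 2228 bases in replicate 1 and 848 and 849 in replicates 2 and 3. Its level by TPM had an SD of 0.70 log2 units, against 0.110 (TMM) and 0.485 (library totals) for its log2 CPM.

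Isoforms typed as retained intron carried a large part of the TPM of Cybb, Ncf4 and Ncf1. In the GENCODE M21 annotation 9 of the 24 isoforms of these genes are of this type: 2 of Cybb, 4 of Ncf4 and 3 of Ncf1, with none for Cyba or Rac2. Each of the 9 runs past an exon edge into part of an intron, and no model among them spans a whole intron. Reads of RNA not yet spliced can cover the same intronic bases, and cannot be told apart here from reads of these isoforms. The exon-intron borders that 5 of these 9 isoforms read through are shown, because a read across such a border is one that the spliced form cannot give. Each line holds 30 bases of the mm10 transcript sequence from GENCODE M21, written 5′ to 3′ on the gene's strand, with the GT that opens the intron or the AG that closes it in capitals.

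Cybb-202, exon 3 into intron 3: aggggttccagtgcgGTaagagcaaacact
Cybb-203, exon 8 into intron 8: gtggtcatcaccaagGTattcactgatgtg
Ncf1-203, intron 2 into exon 3: tcttcttctatctAGaaaatgctgaaggag
Ncf4-204, exon 8 into intron 8: aggcaaaaccatcaaGTtggtgtcctgctg
Ncf4-206, intron 8 into exon 9: tactgtcccccttAGggacattgcggtgga

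The 656 intronic bases of Cybb-202 lie at chrX:9464988-9465643 and the 260 of Cybb-203 at chrX:9449381-9449640. The 285 of Ncf1-203 lie at chr5:134227526-134227810, and the 48 of Ncf4-204 and 94 of Ncf4-206 at chr15:78260755-78260802 and chr15:78260878-78260971, opposite ends of 1 intron.

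For Cybb, most counts belonged to the full-length coding transcript while most TPM did not. Cybb-201, 4752 bases with 13 exons, took 75.7%, 88.7% and 90.0% of the gene's expected counts in replicates 1 to 3 and measured 136, 77.4 and 112 TPM. Cybb-202, a 928-base form that ends in intron 3, took 20.0%, 7.35% and 7.0% of counts but measured 226, 43.1 and 57.6 TPM. In replicate 1 it had the highest TPM of any Cybb isoform, and its 2275 counts there compared with 787 and 837 in the others. Cybb-203, 566 bases around intron 8, measured 98.5, 50.7 and 52.1 TPM. The excess of replicate 1 in Cybb was thus larger in the intron-containing forms than in Cybb-201. Cybb-204 and Cybb-205 had at most 3.27 counts in this alignment-based table, while the alignment-free one gave them 329, 268 and 223 and 12.5, 91.2 and 145 counts (replicates 1, 2 and 3).

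**Figure D2:**
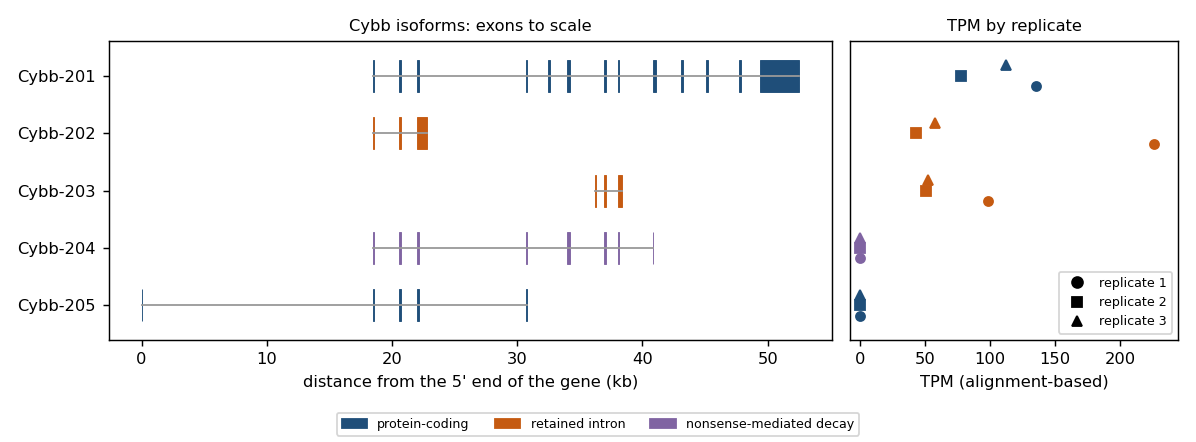
Left, the 5 annotated Cybb isoforms drawn to scale as exons (boxes) by distance in kilobases from the gene's 5′ end; right, the TPM of each isoform on a linear axis, 1 point per replicate. Cybb-202, which runs from exon 3 into intron 3, reaches 226 TPM in replicate 1 and 43.1 and 57.6 in the others, while Cybb-201 lies between 77.4 and 136.

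Summed over isoforms, the retained-intron share of Cybb was 58.2% ± 11.0 of TPM (SD, n = 3) and 15.2% ± 7.89 of expected counts. That of Ncf4 was 68.7% ± 3.08 of TPM and 39.3% ± 3.01 of counts, the highest of the 3 genes by both measures. That of Ncf1 was 35.8% ± 2.54 of TPM and 11.3% ± 1.03 of counts. TPM weights short isoforms up, and the retained-intron models are short. Over 6577 tested protein-coding genes that have such an isoform, the median share was 44.3% of TPM and 29.1% of counts. By TPM, 71.3% of those genes lay below Cybb, 84.7% below Ncf4 and 36.3% below Ncf1; by counts it was 31.4%, 61.7% and 25.1%. By annotated class, in this table Ncf4 was thus above the median gene by either measure, Ncf1 below it, and Cybb on different sides by the 2 measures. By alignment-free TPM, 53.6% of the genes lay below Ncf1, whose share of 46.4% was there just above the median of 43.9%. These shares leave out Ncf1-205, which is typed protein-coding. It has an exon of 1916 bases where Ncf1-201 has exons of 188 and 1609, and so keeps the intron between them. Ncf1-205 took 26.5%, 21.4% and 26.3% of the expected counts of Ncf1 in replicates 1 to 3. How common such coding forms are in other genes was not tested.

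Among the isoforms of Ncf4, Ncf4-201 held most counts of any (447, 643 and 762 in replicates 1 to 3) and measured 25.4, 19.5 and 29.4 TPM. The 336-base Ncf4-204 measured 22.0, 30.1 and 39.9 TPM from 40.8, 79.3 and 91.4 counts. Ncf4-203, a second coding form, was at 0.54 TPM in replicate 1 against 11.4 and 13.6 in replicates 2 and 3. For Ncf1, the coding Ncf1-202 led with 913, 1117 and 1317 counts. Its form subject to nonsense-mediated decay, Ncf1-206, had 61.1 counts in replicate 1 and 546 and 531 in replicates 2 and 3, so replicate 1 stood apart there too.

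Cyba and Rac2 lacked isoforms typed as retained intron, but their short isoforms still mattered. Cyba-201, the 744-base coding form, had 89.8, 344 and 301 counts, and the processed transcript Cyba-203 had 45.2, 78.6 and 62.5. Rac2-201, the 3038-base coding form, held 97.4%, 95.4% and 95.1% of the counts and measured 12.3, 7.20 and 10.9 TPM. Rac2-202, a form subject to nonsense-mediated decay, has 126 bases in exon 2 against 72 in Rac2-201, and so holds part of intron 2. Rac2-203, a coding model of 254 bases, had 0, 18.2 and 25.5 counts and yet 0, 16.1 and 25.1 TPM, because its effective length was 62.9, 41.5 and 47.8 bases. In replicates 2 and 3, 65.1% and 66.7% of Rac2's TPM therefore came from 3.18% and 3.75% of its counts. The 0 counts of Rac2-203 in replicate 1 allow up to 3, or 0.27 CPM. Every call of Rac2 above the reference used values that include Rac2-203 or a gene length that it shortened. Rac2-201 alone, at 12.3, 7.20 and 10.9 TPM against reference medians of 5.5, 3.7 and 4.93, was not tested.

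**Figure D3:**
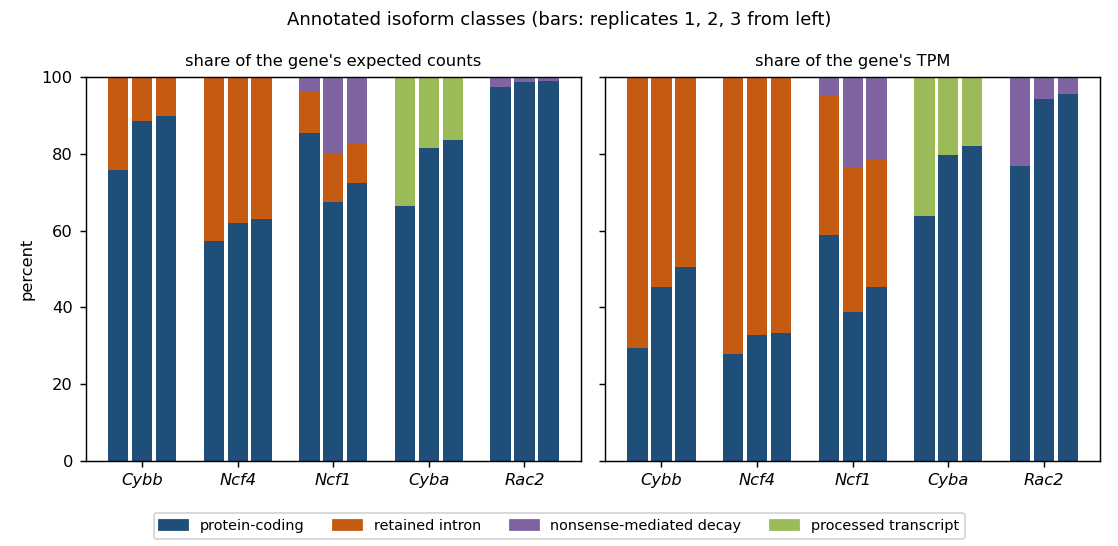
Share of each gene's expected counts (left) and TPM (right), in percent, by annotated class of isoform, with bars for replicates 1, 2 and 3 from the left within each gene. Retained-intron forms make up 49.3% to 70.5% of Cybb's TPM but 9.99% to 24.3% of its counts, and 66.7% to 72.2% and 37.0% to 42.7% for Ncf4.

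The deposited alignment-free table, a second quantification of the same libraries, gave its largest difference for Rac2. Each table was centred on its own median before the difference was taken. The alignment-based level minus the alignment-free level was 0.14 ± 0.10 log2 units for Cybb, -0.18 ± 0.14 for Ncf4, 0.47 ± 0.15 for Ncf1 and -0.53 ± 0.27 for Cyba (SD, n = 3). Uncentred, Cyba stood at 69.4, 47.3 and 71.2 TPM in the alignment-free table, against 18.8, 33.3 and 37.1. For Rac2 it was -2.68, -1.48 and -1.76 in replicates 1 to 3, a mean of -1.97 ± 0.62, with TPM of 214, 77.7 and 189 in the alignment-free table. By limma's treat test over 13427 genes, 0 of the 5 were called higher and 0 lower in the alignment-based table, where 0.633% of genes were called higher and 1.9% lower. At an unadjusted p under 0.05 1 of the 5, Rac2, was lower (adjusted p = 0.096, limma treat). Rac2 was called lower without replicate 1 (-1.62, adjusted p = 0.0011), without replicate 2 (-2.22, adjusted p = 0.015) and without replicate 3 (-2.08, adjusted p = 0.039). Each of those fits rests on 2 libraries, and its p-values cannot be compared with those of all 3. In them 358, 296 and 240 genes were called lower, against 255 with all 3 libraries. By CPM in place of TPM the Rac2 difference was -0.60 and was not called (adjusted p = 1.0), close to that of Cyba at -0.66. The alignment-free table put 97.0, 37.3 and 86.2 TPM on Rac2-202, a form subject to nonsense-mediated decay, and 96.1, 33.2 and 90.3 on Rac2-203. All 5 genes were called above the reference in that table as well.

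As a description of pattern, the tested protein-coding genes with levels nearest to each subunit over the 3 libraries were listed by Euclidean distance. For Cybb they were Dab2 (distance 0.13), Ddhd1 (0.21) and Luc7l2 (0.23), and Dab2 measured 439, 160 and 230 TPM. For Ncf4 they were Vasp (0.085), Mllt6 (0.11) and AC149090.1 (0.14), and for Ncf1 they were Crtc2 (0.11), Slc12a4 (0.12) and Hnrnpl (0.14). For Cyba they were Sart1 (0.13), Prrc2b (0.14) and Herc2 (0.18), and for Rac2 Tbc1d17 (0.18), Rhob (0.22) and Psmb10 (0.27). With 3 libraries such nearness mainly says that the genes have the same level.

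The partners and regulators of the oxidase were spread over a wide range. Of 25 tested, 10 were called above and 1 below (21.3% and 21.3% of all tested genes) and 14 neither. Their median level was 0.76 log2 units. Prkcd, a protein kinase C known to phosphorylate p47phox, was highest at 412, 343 and 435 TPM in replicates 1 to 3, with a level of 6.13 ± 0.12, which put it above Cybb in replicates 2 and 3 and below it in replicate 1. Vav3, an exchange factor for Rac, followed with a level of 5.43 ± 0.19 (304, 214 and 219 TPM). Prkca, a related kinase, was the 1 gene called below, with a level of -1.96 ± 0.30 (0.50, 0.53 and 0.34 TPM; not called with no minimum count), and Pak1, a kinase activated by Rac, had the next lowest, -1.04 ± 0.21, and was not called. The kinases of this list thus held both its highest and its lowest values.

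Cybc1, a chaperone needed for the assembly of the membrane core, measured 3.85, 3.24 and 5.08 TPM, a level of -0.18 ± 0.23, and was not called. Rac1, the widely expressed relative of Rac2, measured 7.47, 4.91 and 6.53 TPM, a level of 0.35 ± 0.03, and was not called. In the alignment-free table, though, Rac1 was listed at 53.3, 22.6 and 33.4 TPM, a level of 2.09 ± 0.10, and was called above (adjusted p = 6.3e-04, limma treat). Rac3, another Rac gene, measured 0.96, 0.53 and 1.08 TPM, a level of -1.62 ± 0.11, and was called below (adjusted p = 0.01, limma treat). That call was lost without replicate 2 or 3, with no minimum count, against the median of all tested genes, in the alignment-free table and with protein-coding isoforms only. In the alignment-based table each Rac2 value, summed over its isoforms, lay above every Rac1 and Rac3 value. Of the 3 Rac genes Rac2 alone was called above. In replicates 2 and 3 most of that Rac2 TPM came from the short Rac2-203. Rac2-201 alone measured 12.25, 7.20 and 10.87 TPM in replicates 1 to 3. Its 7.20 in replicate 2 lay below the 7.47 of Rac1 in replicate 1, but within each library Rac2-201 was above Rac1.

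The other NADPH oxidases were at or near 0 in the alignment-based table. Of 9 genes of the family outside the phagocyte complex, all of them given here, only Noxo1, the organiser related to Ncf1, passed the minimum count, and it was called below at -2.02 ± 0.26 log2 units (0.33, 0.37 and 0.49 TPM; adjusted p = 0.0021, limma treat). It was not called with no minimum count (-1.07), with posterior mean TPM (-0.63) or with protein-coding isoforms only (-1.41). Nox1 had 12.5, 5.81 and 3.47 expected counts, Nox3 had 2, 0 and 0, and Duox1 had 1, 0 and 0. Nox4, Duox2, Duoxa1, Duoxa2 and Noxa1 had 0 counts in each library, which allows up to 0.27, 0.12 and 0.152 CPM in the 3 libraries. These floors cover counting error only. The alignment-free table listed Nox4 at 8.21, 2.57 and 3.68 TPM, all of it on Nox4-204, a processed transcript and 1 of 8 annotated forms.

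**Figure D4:**
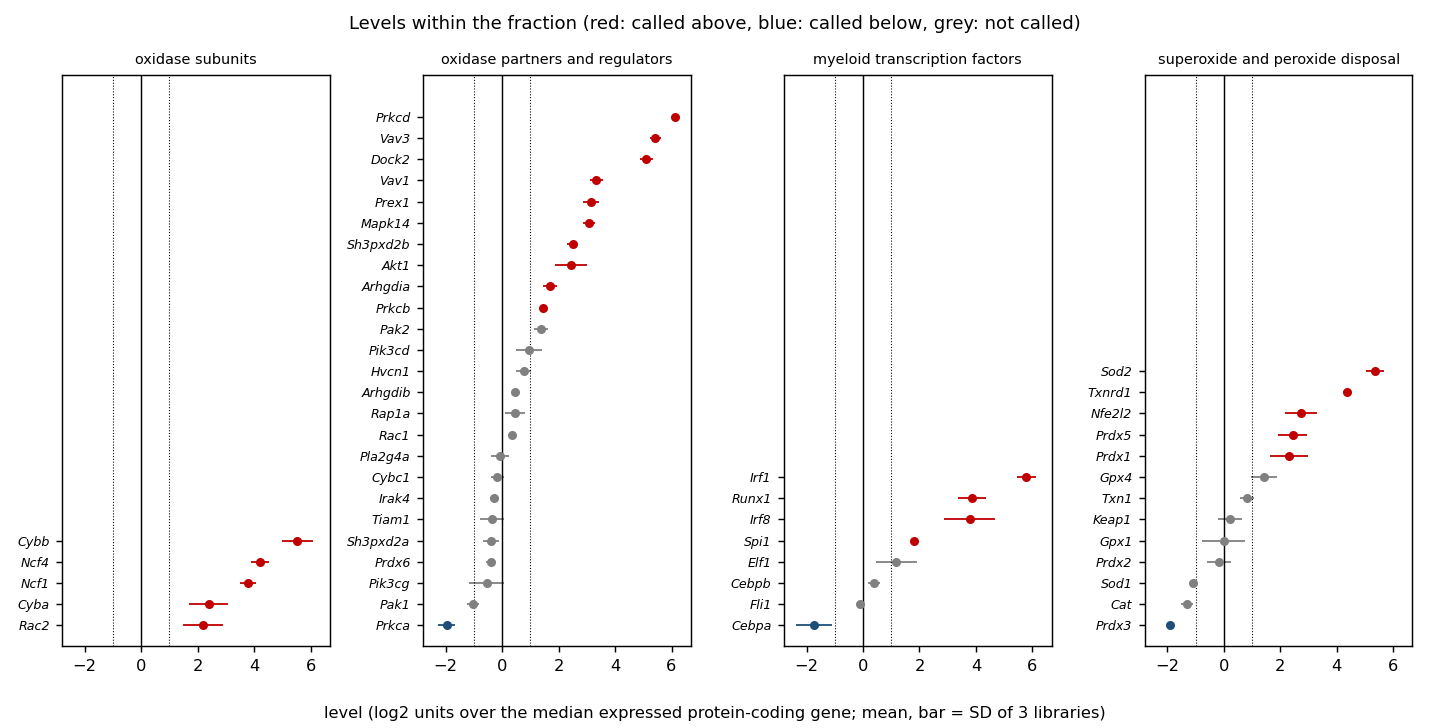
Level in log2 units over the median expressed protein-coding gene (mean of 3 libraries, bar = SD) for the 5 subunit genes and for 3 lists of related genes, with dotted lines at the bound of 1 log2 unit on each side. Red marks genes called above, blue below and grey neither; all 5 subunits are red, from 2.18 for Rac2 to 5.53 for Cybb, and the partners run from -1.96 to 6.13.

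Transcription factors known to act on the Cybb promoter or on myeloid genes held members on both sides. Of 8 tested, 4 were called above and 1 below (21.3% and 21.3% of all tested genes), with a median level of 1.48 log2 units. Irf1 stood at 5.79 ± 0.33 (466, 224 and 289 TPM in replicates 1 to 3), Runx1 at 3.86 ± 0.48, Irf8 at 3.79 ± 0.90 (173, 35.2 and 74.6 TPM) and Spi1, which encodes PU.1, at 1.79 ± 0.06 (20.7, 16.0 and 19.3 TPM). By TPM, Irf1, Irf8 and Runx1 were highest in replicate 1, while Spi1 was nearly even across the libraries. Other genes of the list were also highest in replicate 1, as was the reference median (5.5, 3.7 and 4.93 TPM in replicates 1 to 3). Cebpa was the 1 called below, at -1.73 ± 0.63, and was not called without replicate 3, against the median of all tested genes, with no minimum count or with protein-coding isoforms only. It had too few counts to be tested at a minimum of 100. Fli1, the second lowest, was at -0.12 ± 0.09 and was not called.

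PU.1 and interferon regulatory factors are known to bind together at a composite DNA element in which GGAA and GAAA are 2 bases apart. GGAANNGAAA, on either strand, occurs in 892 of 32851 RefSeq promoter windows (GRCm38.p6, 250 bases before to 50 after each start), or 2.72%. Windows for Cybb, Cyba and Ncf1 were in that table, and the Cybb window held 1 match and the others 0. The 30 bases around the match are shown, 5′ to 3′ on the minus strand at chrX:9469302-9469331, with the match in capitals; it reads GGAANNGAAA on the opposite strand and covers bases 4 to 13 of the transcript.

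Cybb start region: aagctgctgtTTTCATTTCCtcatcagaag

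The match is a description of these letters, and no binding was measured.

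Genes that dispose of superoxide and peroxide, the products of the oxidase, held members on both sides. Of 15 annotated members 13 passed the minimum count, 5 were called above and 1 below (21.3% and 21.3% of all tested genes), with a median level of 0.82 log2 units. Sod2, the mitochondrial superoxide dismutase, was highest at 5.36 ± 0.31 (331, 154 and 243 TPM in replicates 1 to 3). Txnrd1, a thioredoxin reductase, stood at 4.36 ± 0.15, Nfe2l2, the regulator NRF2, at 2.72 ± 0.57, and the peroxiredoxin genes Prdx5 and Prdx1 at 2.43 ± 0.51 and 2.30 ± 0.68. Another peroxiredoxin gene, Prdx3, was the 1 called below, at -1.91 ± 0.05, but not with no minimum count or with protein-coding isoforms only. Cat, which encodes catalase, was at -1.30 ± 0.21 and was not called, and Sod3 and Mpo had 0 counts.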

How the data were processed

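Chromatin-fraction RNA of 3 libraries of 1 group was analysed. The deposited gene and transcript tables give expected counts (unscaled), effective lengths and TPM on mm10 with GENCODE M21, made from transcriptome alignments according to the deposited description files, with column names like RSEM's per the file headers. A second deposited transcript table gives estimated counts and TPM made without an alignment, and was summed to genes. Aligner, versions, strand use and the treatment of multi-mapping reads: not given in the sources used here. TPM was scaled by the authors over all entries, so 1 abundant RNA moves the others.

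The 13434 genes whose expected count averaged 10 or more were tested. Levels, on log2(TPM + 1), were tested with limma 3.58.1 (R 4.3.3) treat, intercept only, bound of 1 log2 unit, Benjamini-Hochberg at 0.05. The pseudocount of 1 understates differences of low genes. Expected counts were rounded for edgeR 4.0.16 (TMM factors 1.44, 0.726 and 0.956; prior count 2) and DESeq2 1.42.0. The 13427 genes of the second comparison had a value in both tables. A count of 0 allows 3 counts. Code was tested on simulated data. Alternatives were the pseudocount, minimum count, reference, table, scaling, each replicate left out and, chosen after seeing the data, protein-coding isoforms only.

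Named genes were all 5 subunits, of each list the 2 highest and 2 lowest tested levels, any called member where 5 or fewer were called, Rac1, Rac3 and Cybc1, and 3 nearest genes per subunit. The subunits and lists were chosen with earlier results of these data known; some of their items are not reported here. Replicates of 1 group give no contrast between conditions.

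For shared sequence, 31-base words of each gene's transcripts were sought in all other genes' transcripts. The share found was 0% for Cybb and Ncf4, 4.42% for Rac2, 7.39% for Cyba and 9.84% for Ncf1, where 326 of 363 words were those of Gtf2ird2.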

Additional observations from a re-analysis of the deposited data

How the results depend on the processing

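No paired analysis was possible because the series has 1 group. All 5 subunit genes were called above under every alternative run except a minimum mean count of 100, where 3 were (Cyba 1.32 and Rac2 1.11 log2 units, not called). For Rac2 each run kept the short Rac2-203 or a gene length that it shortened. Genes called above numbered 4928 with no minimum count and 1317 with a minimum of 100; genes called below numbered 5539 and 785, and 739 with protein-coding isoforms only, and 1571 to 3342 with 1 replicate left out (fewest without replicate 3). Lists followed the minimum too: at 100, partners had 6 above and disposal genes 2, while counts below were 0 to 3 in every list. Pairs reversed for Cyba minus Rac2 (-1.24 alignment-free, -0.027 with protein-coding isoforms only), Ncf1 minus Rac2 (-0.86 alignment-free) and Ncf1 minus Ncf4 (0.13 with protein-coding isoforms only). Between the tables, 52 genes were higher in the alignment-based one at a minimum of 100 and 8 by CPM; 418 were lower at a pseudocount of 0.1 and 84 at a minimum of 100. The difference for Rac2 was called at a minimum of 100 (-2.05, adjusted p = 0.037, limma treat). It was also called without each replicate, in fits on 2 libraries (-2.22 to -1.62). By CPM it was -0.60. By total counts the SDs were 0.633 (Cybb) and 0.485 (Rac2). Retained-intron shares by counts were 15.2% (Cybb), 11.3% (Ncf1) and 39.3% (Ncf4), and by alignment-free TPM 46.4% (Ncf1) and 75.2% (Ncf4). The cause of the other shifts was not tested. Cyba rested on 135 to 428 counts, the fewest of the 5.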
